A study of Mus musculus with 12 samples.

Results

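The genes described here are 34 genes of the chemokine system, 26 ligands and 8 receptors, out of 22195 genes with deposited read estimates. They were chosen by name, with earlier results of these data known, and ligands were set beside the receptors they are known to bind. Of the 34, 28 passed a filter on low counts and were tested. RNA was sequenced from whole subcutaneous tumours, labelled as skin tumour, that YUMM2.1 cells formed in immunocompetent C57BL/6J mice. YUMM2.1 is a cultured mouse melanoma line, so the tumour cells of all 4 groups come from 1 line. Dosing started at a tumour size of 20 to 50 mm3. The treatments were isotype control IgG, anti-B7-H3 antibody (against a membrane protein of the B7 family, product of Cd276), anti-PD1 antibody (against a checkpoint receptor of T cells, product of Pdcd1) or the combination of both antibodies. Each group has 3 libraries. Nothing in the labels ties a library to its own mouse, so p-values measure the spread between libraries, which may be technical.

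Chemokines are small secreted proteins that bind G protein-coupled receptors on leukocytes and guide those cells into and within tissues. Inflammatory chemokines are made on demand at sites of damage, infection or tumour growth, while homeostatic chemokines position cells in lymphoid organs and barrier tissues. CC ligands such as Ccl2 draw monocytes through Ccr2, the interferon-induced CXC ligands draw activated T cells through Cxcr3, and atypical receptors such as Ackr3 bind chemokines without the usual G protein signal and remove them.

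The libraries of the 4 groups differ in makeup as a whole. Total reads per library ran from 15585622 to 21298142 in isotype control, 3593110 to 3937727 with anti-B7-H3, 8099713 to 10527704 with anti-PD1 and 4409772 to 5014931 with the combination. A set of 10 satellite-like genes took on average 91.1% of reads in isotype control, 0.143% with anti-B7-H3, 70.8% with anti-PD1 and 30.9% with the combination. Reads per kilobase over 1550 olfactory, vomeronasal and taste receptor genes, which tumours are not expected to transcribe, averaged 7.31, 0.0911, 5.25 and 0.697 in the same order. That rate times the coding length of a gene gave its expected background. Of the 34 chemokine genes, 5 reached at least 30 reads and 3 times background in isotype control, 25 with anti-B7-H3, 15 with anti-PD1 and 23 with the combination. The 5 in isotype control were Ccl2, Ccl6, Ccl8, Ccl19 and Ccl24, so for the other 29 a change against isotype control starts from fewer than 30 reads or less than 3 times background. A list of 7 melanocyte markers summed to 90.6 to 107 CPM (reads per 1000000 of the scaled library) in isotype control, 83.1 to 86.8 with anti-PD1, 44.4 to 46.8 with the combination and 25.5 to 28.8 with anti-B7-H3, where 2 defining markers, Tyrp1 and Dct, had 0 reads.

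**Figure D1:**
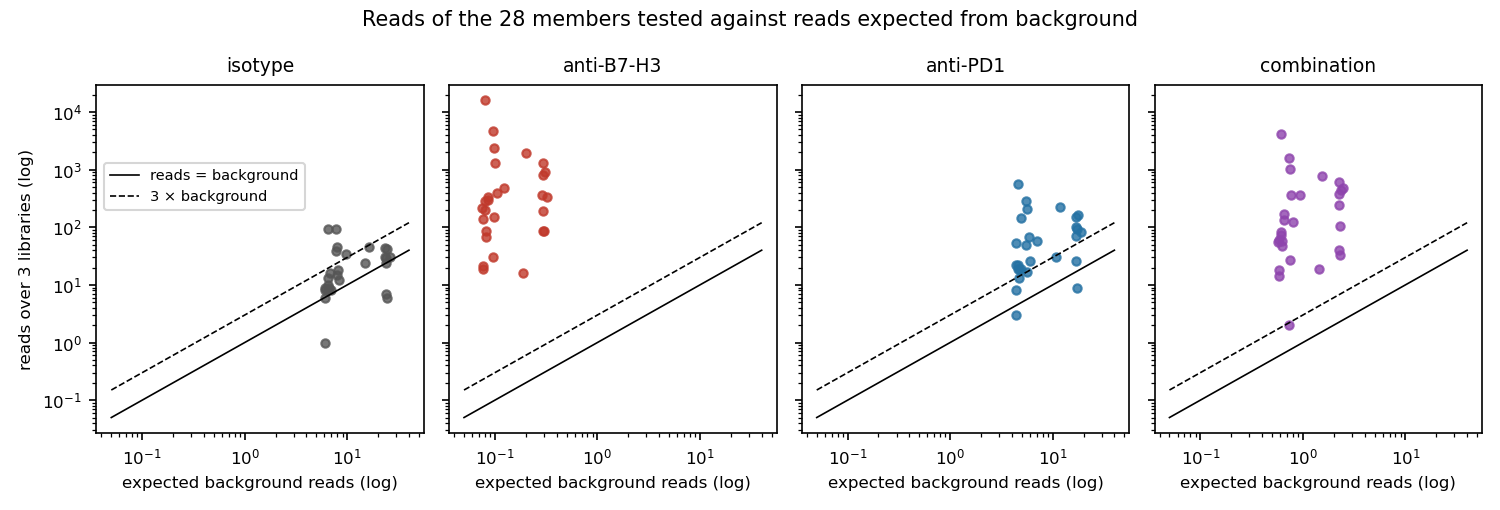
Reads of the 28 tested chemokine genes, summed over the 3 libraries of a group, against the background expected from chemoreceptor genes, both on log axes, with 1 panel for each group. The solid and dashed lines mark 1 and 3 times background, and 5 genes lie at or above 30 reads and 3 times background in isotype control and 25 with anti-B7-H3.

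The plot of reads against background shows how unevenly the groups are measured. In isotype control 9 chemokine genes had fewer reads than this background estimate, and with anti-B7-H3 none did. Cxcr3, for example, held 6 reads in isotype control where 24.2 were expected. The estimate can thus be too high for a gene, and subtracting it can then remove too much. The median chi-square per gene between libraries of a group ran from 0.548 to 1.18 over 12 pairs, where counting alone gives 0.455. It was 0.548 to 0.560 with anti-B7-H3 and 0.549 to 0.576 with the combination, little beyond counting noise. With anti-PD1 it was 0.624 to 0.651, and in isotype control 0.701 to 1.18, so those libraries differed most. All levels below are CPM on TMM-scaled library sizes. Calls rest on edgeR's quasi-likelihood test, with p-values adjusted over 13478 genes by Benjamini-Hochberg and a threshold of 0.05, and changes are log2 fold changes ± SE from that fit, whose replicates are the 3 libraries of each group.

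Chemokine genes were mostly higher with anti-B7-H3. Against isotype control, 23 of the 28 tested rose and 2 fell, beside 30.8% of all genes called higher and 33.3% called lower, and the median log2 fold change was 2.02 (all genes -0.04). With anti-PD1 4 rose and 2 fell, beside 17.5% and 20.9% of all genes, with a median of -0.14 (all genes -0.04), so the share called was not above that of all genes. With the combination 14 rose and 2 fell, beside 27.8% and 29.5% of all genes, with a median of 1.21 (all genes -0.01). The same 14 were among the 23 that rose with anti-B7-H3, and Ccl8, Ccl24, Ccl17 and Cxcl16 rose in all 3 treated groups. These 3 comparisons share the isotype control libraries. The list was chosen with earlier results of these data known, so counts over it only describe. The filter on low counts used whole library sizes, satellite-like reads included. A gene therefore needed more reads to pass in isotype control than with anti-B7-H3, which favours genes high with anti-B7-H3. With no filter 4 chemokine genes were lower with anti-B7-H3, and of 21947 genes 5906 were called higher and 10805 lower.

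Adding anti-PD1 to anti-B7-H3 went with lower chemokine levels. Between the combination and anti-B7-H3 alone, 21 of 28 fell and 1, Cx3cl1, rose, beside 19.1% of all genes called lower and 19.8% called higher. The median log2 fold change was -0.93 (all genes 0.01). Against anti-PD1 alone the combination had 18 higher and 2 lower, beside 23.1% and 23.4% of all genes, with a median of 1.35 (all genes -0.00). The interaction, the log2 change with both antibodies less the changes with the single antibodies added up, was called for 13 of 28, all negative, beside 17.3% of all genes called negative and 19.1% called positive. Its median was -1.12 (all genes 0.04).

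**Figure D2:**
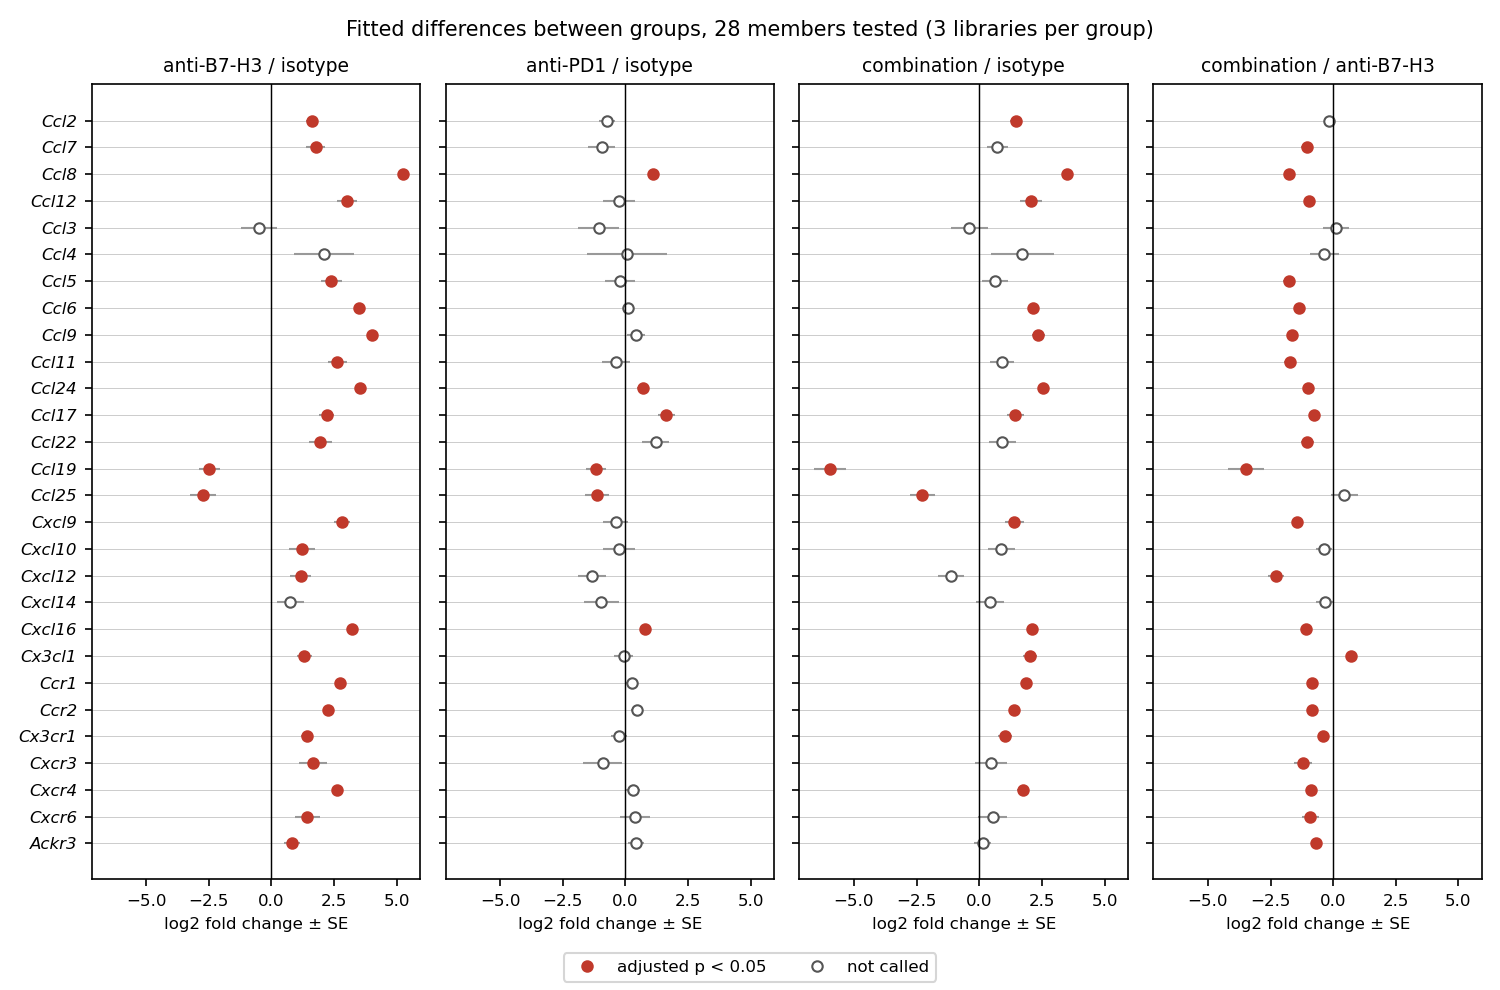
Log2 fold change (x axis) of the 28 tested chemokine genes, as points with bars of ± 1 SE, in 4 comparisons: each treated group against isotype control, and the combination against anti-B7-H3. Filled points passed the edgeR test. Most points lie right of 0 for anti-B7-H3 (median 2.02) and left of 0 for combination against anti-B7-H3 (median -0.93).

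In the plot of fold changes, the homeostatic ligands Ccl19 and Ccl25 are the called genes left of 0 for anti-B7-H3, with Ccl3 left of 0 without a call. In the comparison of the combination with anti-B7-H3, Cx3cl1 is the called gene right of 0, and Ccl3 and Ccl25 lie right of 0 without a call. Markers of cell types that make or answer to chemokines moved in the same comparisons. A list of 10 macrophage markers summed to 278 to 306 CPM in isotype control, 2335 to 2363 with anti-B7-H3, 401 to 421 with anti-PD1 and 1153 to 1169 with the combination, none of the 10 at 0 reads. All 9 of its tested genes were higher with anti-B7-H3 and with the combination than in isotype control, and 8 were lower with the combination than with anti-B7-H3. The part of these cells in the chemokine changes was not tested, and in whole tumours fewer cells of a type and less RNA per cell cannot be told apart.

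**Figure D3:**
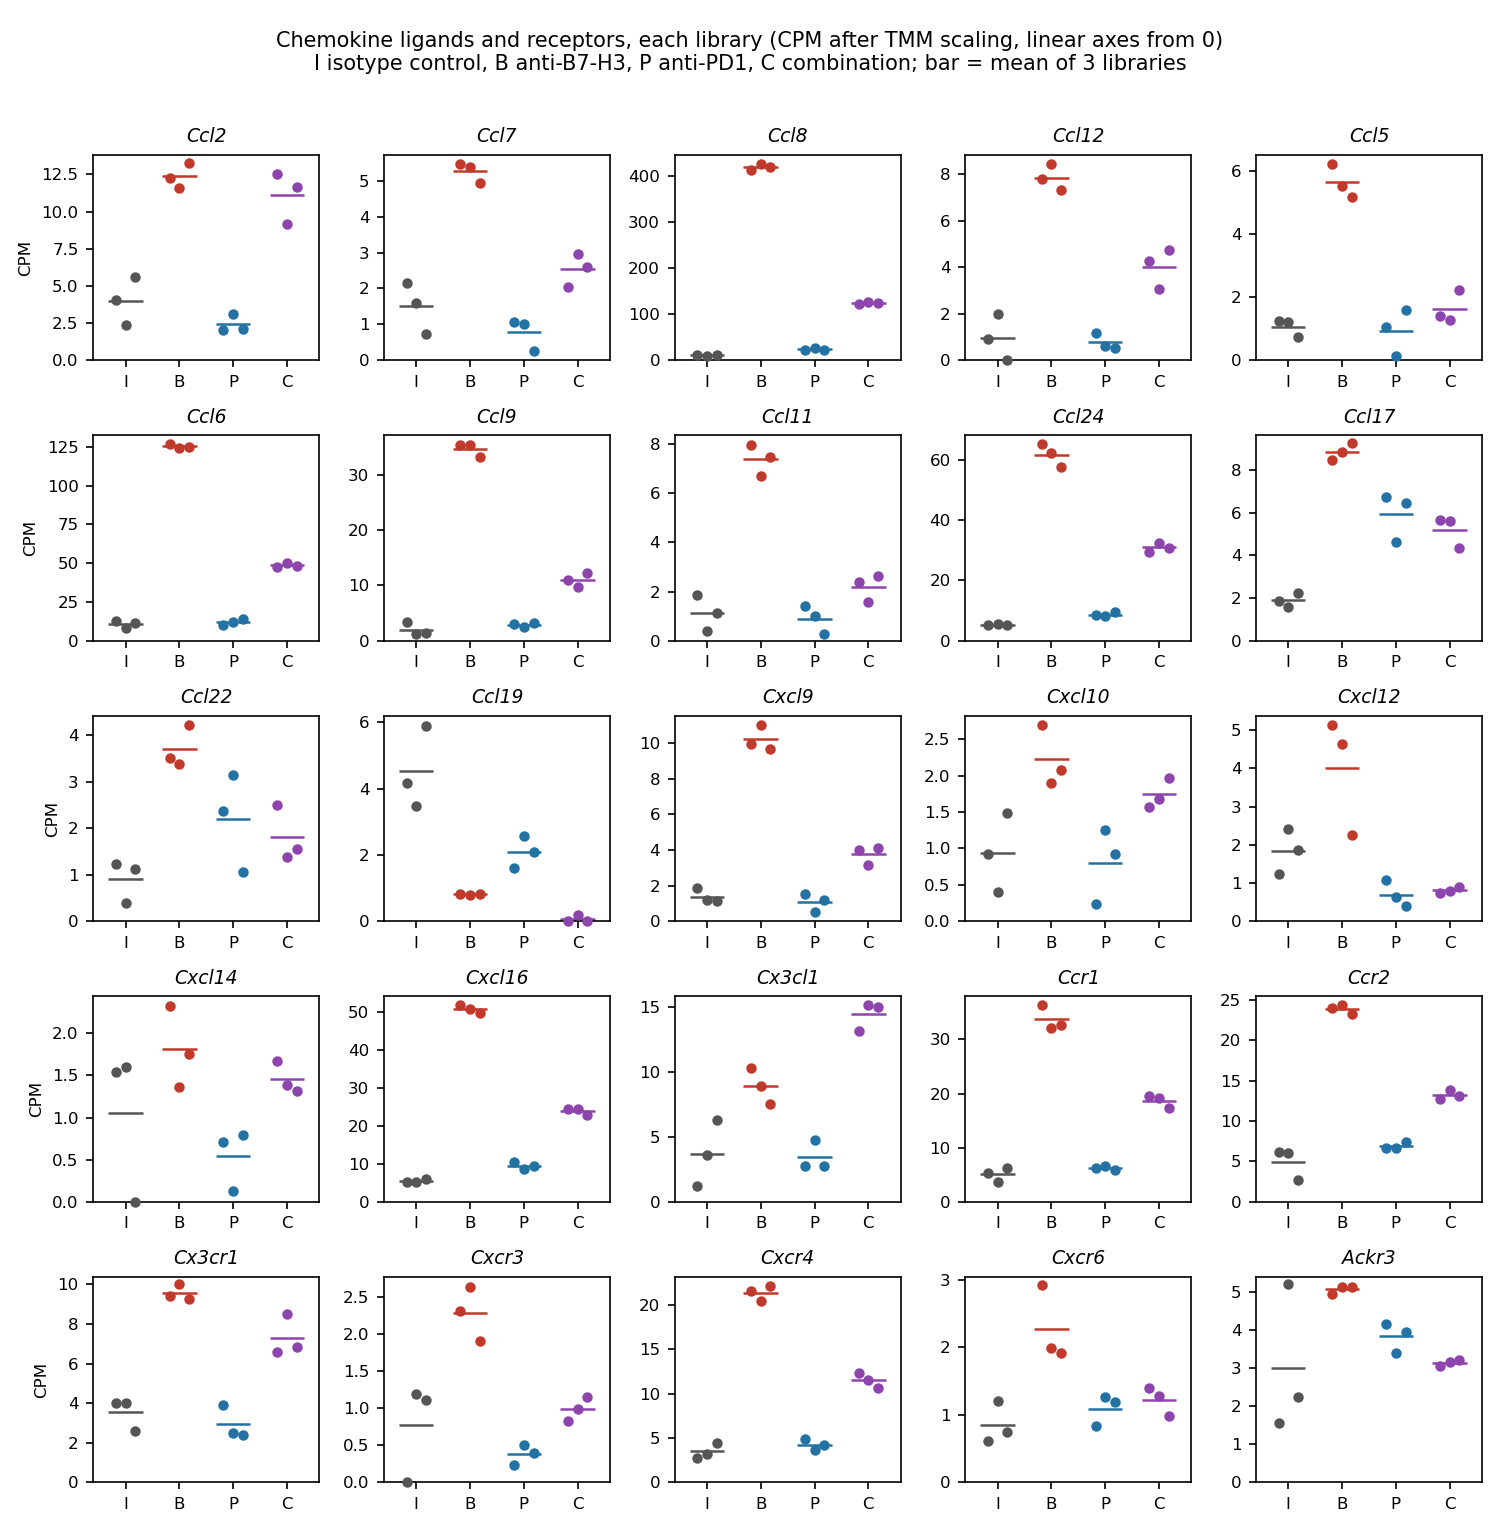
CPM (linear y axis from 0) in each of the 12 libraries for the 25 chemokine genes that were above background in at least 1 group, 1 panel for each gene; I is isotype control, B anti-B7-H3, P anti-PD1 and C the combination. Points of a group lie close together, and B is the highest group for most genes, with Cx3cl1 highest in C and Ccl19 highest in I.

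In the panels of single libraries the highest group stood clear of the next, except for Ccl2, Cxcl10, Cxcl12, Cxcl14 and Ackr3, where a library of another group overlapped it. All 25 were above background with anti-B7-H3, so the panels favour genes that are high there. Of the 9 genes without a panel, Ccl3, Ccl25, Ccl27a, Cxcl1, Cxcl5 and Ackr4 had their highest mean in isotype control. By group means, Ccl17, Ccl22 and Ackr3 have anti-PD1 in the second place, Cxcl12 has isotype control there, Cx3cl1 has the combination first and Ccl19 isotype control first. Neighbours in these orders do not always differ, as the tests given with each gene show.

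The monocyte-attracting CC ligands Ccl2, Ccl7, Ccl8 and Ccl12 all rose with anti-B7-H3, 4 of 4 tested, beside 30.8% of all genes. With the combination 3 of 4 rose, beside 27.8% of all genes. Together with Ccl11, described with the ligands of Ccr3, they lie within 81.2 kb of chromosome 11 (82035571 to 82116799). The order there is Ccl2, Ccl7, Ccl11, Ccl12 and Ccl8. Ccl8 (ENSMUSG00000009185.2, chr11:82115185-82116799, plus strand) is a ligand of Ccr8 in mice that draws monocytes and T cells. It stood at 11.7, 9.20 and 11.5 CPM in isotype control, 412, 425 and 419.7 with anti-B7-H3, 23.1, 25.5 and 22.5 with anti-PD1 and 123, 125 and 124 with the combination. No library of any group overlapped another group, and Ccl8 was the most abundant chemokine gene per kilobase of coding length in every group. Its log2 fold change against isotype control was 5.26 ± 0.0836 (edgeR adjusted p = 1e-58) with anti-B7-H3, 1.12 ± 0.131 (edgeR adjusted p = 8.14e-11) with anti-PD1 and 3.51 ± 0.0974 (edgeR adjusted p = 3.32e-43) with the combination. Between the combination and anti-B7-H3 it fell, with a log2 fold change of -1.76 ± 0.0438 (edgeR adjusted p = 1.38e-45). Subtraction of background from every gene lowered the change with anti-B7-H3 to 4.53 and with the combination to 2.80.

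The promoter of Ccl8 is shown because this gene had the largest change with anti-B7-H3. It covers 250 bases before and 50 after the RefSeq start in GRCm38.p6 (chr11:82114935-82115234, plus strand), and none of the 3 motifs searched (described with Cxcl9 and Cxcl10) lies in it, so no letters are in capitals.
Ccl8: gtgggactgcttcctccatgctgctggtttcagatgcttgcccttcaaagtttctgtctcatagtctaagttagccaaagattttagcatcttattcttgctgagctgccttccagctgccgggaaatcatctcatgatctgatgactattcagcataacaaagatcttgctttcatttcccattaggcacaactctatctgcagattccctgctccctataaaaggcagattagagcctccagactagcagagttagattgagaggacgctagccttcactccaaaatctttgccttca

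Ccl2, the main ligand of Ccr2, stood apart from its neighbours in the combination. Ccl2 (ENSMUSG00000035385.5, chr11:82035571-82037453, plus strand) stood at 4.02, 2.40 and 5.57 CPM in isotype control, 12.3, 11.6 and 13.3 with anti-B7-H3, 2.01, 3.14 and 2.11 with anti-PD1 and 12.5, 9.18 and 11.6 with the combination. The anti-B7-H3 and combination libraries lay above those of the other groups, and overlapped each other. It rose with anti-B7-H3 by a log2 fold change of 1.61 ± 0.234 (edgeR adjusted p = 1.05e-08) and with the combination by 1.46 ± 0.241 (edgeR adjusted p = 3.09e-07). Between the combination and anti-B7-H3 the value was -0.15 ± 0.126 (edgeR adjusted p = 0.373), not called. The anti-PD1 value was -0.73 ± 0.328 (edgeR adjusted p = 0.0688), not called with all libraries, and -0.97 (edgeR adjusted p = 0.0277) without isotype control replicate 2 and -0.98 (edgeR adjusted p = 0.0294) without anti-PD1 replicate 2.

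Ccl7 and Ccl12, also ligands of Ccr2, fell between anti-B7-H3 and the combination where Ccl2 was not called. Ccl7 (ENSMUSG00000035373.2, chr11:82045712-82047525, plus strand) stood at 2.16, 1.60 and 0.743 CPM in isotype control, 5.47, 5.37 and 4.94 with anti-B7-H3, 1.07, 1.0 and 0.263 with anti-PD1 and 2.04, 2.96 and 2.60 with the combination. Its anti-B7-H3 libraries were the highest of the 12. Ccl7 rose with anti-B7-H3 by 1.76 ± 0.370 (edgeR adjusted p = 2.91e-05) and fell between anti-B7-H3 and the combination, with a log2 fold change of -1.05 ± 0.224 (edgeR adjusted p = 8.9e-05). Against isotype control the combination gave 0.71 ± 0.420 (edgeR adjusted p = 0.14), not called, although it gave 1.01 (edgeR adjusted p = 0.0215) with no filter on low counts.

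Ccl12 (ENSMUSG00000035352.3, chr11:82101845-82103400, plus strand) is a mouse ligand of Ccr2 without a direct human counterpart. It stood at 0.927, 2.0 and 0 CPM in isotype control, 7.82, 8.43 and 7.33 with anti-B7-H3, 1.18, 0.628 and 0.527 with anti-PD1 and 4.26, 3.06 and 4.76 with the combination. The anti-B7-H3 libraries were highest and the combination libraries next, with no overlap between them. Ccl12 rose with anti-B7-H3 by 3.03 ± 0.391 (edgeR adjusted p = 3.72e-10) and with the combination by 2.08 ± 0.445 (edgeR adjusted p = 5.1e-05), and fell between these, with -0.95 ± 0.186 (edgeR adjusted p = 2.13e-05). Isotype control held 8 reads where background gives 6.91, and without isotype control replicate 2 the changes came to 3.90 and 2.95.

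Among the inflammatory ligands Ccl3, Ccl4, Ccl5, Ccl6 and Ccl9, which draw monocytes, macrophages and T cells, 3 of 5 tested rose with anti-B7-H3 and the same 3 fell between anti-B7-H3 and the combination. Those were Ccl5, Ccl6 and Ccl9, from a cluster of 139 kb on chromosome 11 (83525778 to 83664683) that also holds Ccl3 and Ccl4. Ccl6 (ENSMUSG00000018927.3, chr11:83587882-83593087, minus strand) is a ligand of Ccr1 known from rodents. Ccl6 stood at 13, 8.40 and 11.1 CPM in isotype control, 127, 124 and 125 with anti-B7-H3, 10.1, 11.8 and 13.8 with anti-PD1 and 47.6, 50.4 and 48.4 with the combination. Its anti-B7-H3 libraries were far above the rest, the combination libraries lay between, and isotype control and anti-PD1 overlapped. The log2 fold changes were 3.5 ± 0.106 (edgeR adjusted p = 1.83e-41) with anti-B7-H3 and 2.14 ± 0.123 (edgeR adjusted p = 6.6e-25) with the combination against isotype control, and -1.36 ± 0.0553 (edgeR adjusted p = 4.85e-33) between the combination and anti-B7-H3. Anti-PD1 gave 0.10 ± 0.164 (edgeR adjusted p = 0.678), not called. Background subtraction lowered the first value to 2.79 and the second to 1.45.

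Ccl9 (ENSMUSG00000019122.8, chr11:83572919-83578636, minus strand), another rodent ligand of Ccr1, stood at 3.4, 1.2 and 1.49 CPM in isotype control, 35.4, 35.4 and 33.2 with anti-B7-H3, 2.96, 2.51 and 3.16 with anti-PD1 and 10.9, 9.68 and 12.3 with the combination. The order of the groups was that of Ccl6. Ccl9 rose with the combination by 2.36 ± 0.271 (edgeR adjusted p = 1.08e-11) and fell between anti-B7-H3 and the combination, with -1.65 ± 0.0963 (edgeR adjusted p = 2.77e-24). Against isotype control the change with anti-B7-H3 was 4.01 ± 0.214 (edgeR adjusted p = 5.53e-27), and isotype control replicate 1 held most of that group's 18 reads. Without that library the changes came to 4.65 with anti-B7-H3 and 3.0 with the combination.

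Ccl5 (ENSMUSG00000035042.2, chr11:83525778-83530518, minus strand), which T cells, platelets and macrophages release, stood at 1.24, 1.2 and 0.743 CPM in isotype control, 6.22, 5.54 and 5.18 with anti-B7-H3, 1.07, 0.126 and 1.58 with anti-PD1 and 1.39, 1.28 and 2.21 with the combination. The anti-B7-H3 libraries stood clear of all others. Ccl5 rose with anti-B7-H3 by 2.39 ± 0.425 (edgeR adjusted p = 1.44e-06) and fell between anti-B7-H3 and the combination, with -1.76 ± 0.255 (edgeR adjusted p = 3.33e-08). The combination against isotype control gave 0.62 ± 0.526 (edgeR adjusted p = 0.316) and against anti-PD1 0.84 ± 0.388 (edgeR adjusted p = 0.0693), neither called. The latter was called without anti-PD1 replicate 3, at 1.41 (edgeR adjusted p = 0.0121), and without combination replicate 2, at 1.01 (edgeR adjusted p = 0.0424). Isotype control held 9 reads against 6.06 expected from background, and background subtraction raised the change with anti-B7-H3 to 3.13.

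Ccl3 and Ccl4, products of activated macrophages and T cells, were scarce. Ccl3 summed to 6, 19, 8 and 18 reads in isotype control, anti-B7-H3, anti-PD1 and combination, and was called in no comparison. Ccl4 summed to 1, 21, 3 and 14 reads in that order, also without a call. Its ratio of anti-B7-H3 to isotype control was 4.66 with a 95% counting interval of 0.749 to 193, so a difference was not detectable at this depth. Neither gene reached 30 reads in any group.

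Ligands of Ccr3 and Ccr4, receptors of eosinophils and of helper T cells that make type 2 cytokines, rose with anti-B7-H3 in 4 of 4 cases, beside 30.8% of all genes. With anti-PD1 2 of them rose, beside 17.5% of all genes. Ccl24 (ENSMUSG00000004814.10, chr5:135569937-135573049, minus strand), an eotaxin that binds Ccr3, stood at 5.26, 5.60 and 5.20 CPM in isotype control, 65.1, 62.3 and 57.5 with anti-B7-H3, 8.52, 8.04 and 9.48 with anti-PD1 and 29.5, 32.5 and 30.8 with the combination. No group overlapped another. Ccl24 rose by 3.53 ± 0.145 (edgeR adjusted p = 2.57e-33) with anti-B7-H3, 0.70 ± 0.215 (edgeR adjusted p = 0.00736) with anti-PD1 and 2.53 ± 0.165 (edgeR adjusted p = 3.47e-22) with the combination, and fell between anti-B7-H3 and the combination, with -1.0 ± 0.0691 (edgeR adjusted p = 1.78e-20). Background subtraction ended the call with anti-PD1, at 0.36 (edgeR adjusted p = 0.303).

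Ccl11 (ENSMUSG00000020676.2, chr11:82057823-82062955, plus strand), the other eotaxin listed, stood at 1.85, 0.400 and 1.11 CPM in isotype control, 7.98, 6.69 and 7.49 with anti-B7-H3, 1.42, 1.0 and 0.263 with anti-PD1 and 2.41, 1.58 and 2.62 with the combination. The anti-B7-H3 libraries were the highest, and the other groups lay close together. Ccl11 rose with anti-B7-H3 by 2.63 ± 0.378 (edgeR adjusted p = 8.11e-09) and fell between anti-B7-H3 and the combination, with -1.73 ± 0.216 (edgeR adjusted p = 4.37e-10). Against isotype control the combination gave 0.90 ± 0.470 (edgeR adjusted p = 0.0942), not called. That value was 1.5 (edgeR adjusted p = 0.0457) without isotype control replicate 1 and 1.17 (edgeR adjusted p = 0.0291) without combination replicate 2, and the change with anti-B7-H3 was 3.22 without isotype control replicate 1. Ccl11 had 10 reads in isotype control, with 6.45 expected from background. A list of 4 eosinophil markers summed to 11.7 to 16.0 CPM in isotype control, 26.4 to 28.5 with anti-B7-H3, 5.01 to 5.90 with anti-PD1 and 6.12 to 8.70 with the combination, none of the 4 at 0 reads. One of the 4 is Ccr3, the eotaxin receptor itself, at 1.52 CPM per kilobase in isotype control and 12.9 with anti-B7-H3. Of the 3 tested genes of the list, 2 were called higher and 1 lower with anti-B7-H3, so the list was split. The 120 isotype control reads of that list compare with 123 expected from background, and its part in the eotaxin changes was not tested.

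Ccl17 and Ccl22, ligands of Ccr4 made mainly by dendritic cells and macrophages, flank Cx3cl1 in a stretch of 66.4 kb on chromosome 8 (94745590 to 94812036) in which these 3 are the only coding genes annotated. Ccl17 (ENSMUSG00000031780.2, chr8:94810453-94812036, plus strand) stood at 1.85, 1.60 and 2.23 CPM in isotype control, 8.46, 8.84 and 9.25 with anti-B7-H3, 6.75, 4.65 and 6.45 with anti-PD1 and 5.65, 5.63 and 4.35 with the combination. Isotype control was lowest without overlap, and the anti-PD1 and combination libraries overlapped. Ccl17 rose by 2.21 ± 0.296 (edgeR adjusted p = 1.02e-09) with anti-B7-H3, 1.64 ± 0.328 (edgeR adjusted p = 3.55e-05) with anti-PD1 and 1.44 ± 0.329 (edgeR adjusted p = 0.000134) with the combination. It fell between anti-B7-H3 and the combination, with -0.77 ± 0.155 (edgeR adjusted p = 3.02e-05), and was -0.20 ± 0.179 (edgeR adjusted p = 0.369) between the combination and anti-PD1, not called.

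Ccl22 (ENSMUSG00000031779.3, chr8:94745590-94751699, plus strand) stood at 1.24, 0.400 and 1.11 CPM in isotype control, 3.52, 3.39 and 4.23 with anti-B7-H3, 2.37, 3.14 and 1.05 with anti-PD1 and 2.50, 1.38 and 1.56 with the combination. Its anti-B7-H3 libraries were above all others, and anti-PD1 overlapped both isotype control and the combination. Ccl22 rose with anti-B7-H3 by 1.95 ± 0.464 (edgeR adjusted p = 0.000191) and fell between anti-B7-H3 and the combination, with -1.03 ± 0.267 (edgeR adjusted p = 0.00121). With anti-PD1 it was 1.21 ± 0.523 (edgeR adjusted p = 0.0608), not called with all libraries. It passed the test without anti-PD1 replicate 3, at 1.51 (edgeR adjusted p = 0.0163), without anti-B7-H3 replicate 2, at 1.26 (edgeR adjusted p = 0.0499), without combination replicate 1, at 1.23 (edgeR adjusted p = 0.0496), and without combination replicate 2, at 1.26 (edgeR adjusted p = 0.045). Isotype control held 8 reads, with 6.12 expected from background.

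Both homeostatic CC ligands that were tested fell in all 3 treated groups. Ccl19 (ENSMUSG00000071005.7, chr4:42754525-42756577, minus strand), which guides dendritic cells and naive T cells through Ccr7, stood at 4.18, 3.48 and 5.91 CPM in isotype control, 0.823, 0.797 and 0.813 with anti-B7-H3, 1.60, 2.56 and 2.09 with anti-PD1 and 0, 0.197 and 0 with the combination. Isotype control was highest and the combination nearly empty, with no overlap between groups. Ccl19 reads summed to 38, 31, 50 and 2 in the order isotype control, anti-B7-H3, anti-PD1 and combination. The log2 fold change was -2.48 ± 0.413 (edgeR adjusted p = 3.05e-07) with anti-B7-H3 and -1.17 ± 0.386 (edgeR adjusted p = 0.012) with anti-PD1. The latter call was lost without isotype control replicate 3, at -0.97 (edgeR adjusted p = 0.0973), and without anti-PD1 replicate 1, at -1.01 (edgeR adjusted p = 0.0578). Over the 2 reads of the combination, isotype control was higher by a ratio of 74.7 (95% counting interval 19.3 to 639), anti-B7-H3 by 13.5 (3.44 to 117) and anti-PD1 by 34.5 (9.07 to 293). Both of those reads came from combination replicate 2. The fitted combination value against isotype control was -5.95 ± 0.627, and -8.23 without that library and -5.33 without combination replicate 3. Against anti-B7-H3 it was -3.47 ± 0.718, or -5.83 without replicate 2, and against anti-PD1 -4.78 ± 0.637, or -7.12 without replicate 2 and -4.19 without replicate 3. Ccl19 shares 63.3% of its 31-base stretches with the predicted gene Gm2564, so its counts are uncertain.

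Ccl25, a ligand of Ccr9 known from thymus and small intestine, summed to 24, 16, 31 and 19 reads in the 4 groups in that order, and reached 3 times background with at least 30 reads in none. Its log2 fold change was -2.72 ± 0.513 (edgeR adjusted p = 4.43e-06) with anti-B7-H3 and -2.27 ± 0.50 (edgeR adjusted p = 7.76e-05) with the combination. With anti-PD1 it was -1.13 ± 0.462 (edgeR adjusted p = 0.0462), and that call was lost when any 1 of the 12 libraries was left out, with values of -1.26 to -1.01. The call between the combination and anti-PD1, -1.14 ± 0.469 (edgeR adjusted p = 0.0391), was lost without any 1 of 7 libraries, with -0.72 without combination replicate 3 as the value nearest 0. Background subtraction ended the calls with anti-PD1, at -0.91 (edgeR adjusted p = 0.412), with the combination, at -1.72 (edgeR adjusted p = 0.0783), and between the combination and anti-PD1, at -0.81 (edgeR adjusted p = 0.356). The first and last of these calls were also lost with DESeq2's Wald test (adjusted p = 0.0795 and 0.074), with no filter (-0.96 and -1.0) and without satellite-like genes (-0.97 and -1.06). Ccl27a, a skin ligand of Ccr10 made by keratinocytes, was not tested. It summed to 18, 10, 9 and 3 reads, and shares 45.6% of its 31-base stretches with Ccl27b and other copies. A list of 6 keratinocyte markers summed to 54.8 to 85.1 CPM in isotype control, 0 to 0.150 with anti-B7-H3, 23.2 to 32 with anti-PD1 and 1.79 to 2.69 with the combination, and Krt5, Krt14, Krt1, Lor and Flg had 0 reads with anti-B7-H3. Their part in the level of Ccl27a was not tested.

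The neutrophil-attracting ligands of Cxcr2 were scarce in every group. Cxcl1 had 4, 6, 6 and 12 reads in isotype control, anti-B7-H3, anti-PD1 and combination, Cxcl2 3, 10, 11 and 8, and Cxcl5 3, 4, 5 and 0. None of the 3 passed the filter, so no test was made. Cxcl13, which guides B cells through Cxcr5, also stayed under the filter, with 1, 10, 4 and 4 reads.

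The interferon-induced ligands of Cxcr3 both rose with anti-B7-H3. Cxcl9 and Cxcl10 together span 27.5 kb of chromosome 5 (92321347 to 92348889), with Art3 between them. Cxcl9 (ENSMUSG00000029417.9, chr5:92321347-92328079, minus strand) stood at 1.85, 1.2 and 1.11 CPM in isotype control, 9.96, 11 and 9.65 with anti-B7-H3, 1.54, 0.502 and 1.19 with anti-PD1 and 3.98, 3.16 and 4.10 with the combination. Its anti-B7-H3 libraries were highest and the combination libraries next, both clear of the rest. Cxcl9 rose by 2.83 ± 0.318 (edgeR adjusted p = 3.48e-12) with anti-B7-H3 and 1.40 ± 0.383 (edgeR adjusted p = 0.00137) with the combination, and fell between these, with -1.43 ± 0.168 (edgeR adjusted p = 4.74e-11). Isotype control held 12 reads where background gives 8.36, and background subtraction raised these changes to 3.98 and 2.57.

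Cxcl10 (ENSMUSG00000034855.13, chr5:92346638-92348889, minus strand) stood at 0.927, 0.400 and 1.49 CPM in isotype control, 2.70, 1.90 and 2.07 with anti-B7-H3, 0.237, 1.26 and 0.922 with anti-PD1 and 1.57, 1.68 and 1.97 with the combination. The anti-B7-H3 libraries lay above isotype control and anti-PD1 and overlapped the combination. Cxcl10 rose with anti-B7-H3 by 1.22 ± 0.516 (edgeR adjusted p = 0.0338), a call lost without isotype control replicate 1 (1.18 (edgeR adjusted p = 0.101)), without isotype control replicate 2 (0.89 (edgeR adjusted p = 0.171)) and without anti-B7-H3 replicate 1 (1.13 (edgeR adjusted p = 0.0782)). It was also lost under background subtraction (1.79 (edgeR adjusted p = 0.0954)), with DESeq2's Wald test (adjusted p = 0.0638) and with an effective-length offset (0.92 (edgeR adjusted p = 0.121)). Between the combination and anti-B7-H3 the value was -0.35 ± 0.315 (edgeR adjusted p = 0.407), not called. The combination was higher than anti-PD1 by 1.12 ± 0.410 (edgeR adjusted p = 0.0197), and that call was lost without anti-PD1 replicate 1 (0.66 (edgeR adjusted p = 0.218)) and without combination replicate 3 (1.05 (edgeR adjusted p = 0.063)). The same 3 settings ended it, background subtraction at 1.43 (edgeR adjusted p = 0.0576), DESeq2's Wald test at an adjusted p of 0.056 and the effective-length offset at 0.94 (edgeR adjusted p = 0.0561).

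The promoters of this pair are shown because interferon is the known inducer of both genes and a script searched them for interferon motifs. Motif letters were searched on both strands: TTCNNNGAA (gamma-activated sequence), GAAANNGAA (core of the interferon-stimulated response element) and GGGNNTTTC (a narrow form of the NF-kappaB site). The first is present in 8.30% of 32851 RefSeq promoters, the second in 8.56% and the third in 4.36%. Of 26 chemokine genes with a promoter in the table, the first matched in Ccl17 and Cxcl14, the second in Ccl3, Ccl19, Cxcl9, Cxcl10, Cxcl14 and Ccr2, and the third in Ccl9, Cxcl1, Cxcl2, Cxcl9, Cxcr3 and Cxcr4. The window of Cxcl9 (chr5:92328030-92328329, minus strand, GRCm38.p6) has a match to the second motif that begins at position -175 from the start and a match to the third at -154, both in capitals. The window of Cxcl10 (chr5:92348840-92349139, minus strand, GRCm38.p6) has a match to the second motif at position -213, also in capitals. No matches overlap each other. The interferon-stimulated and NF-kappaB motifs were each shortened by a letter after matches to the longer forms had been seen, and Cxcl9 had no match to those longer forms. A match is a string of letters and not a shown binding site. A window without a match can still hold a site in another form, such as gggaaattcc or ggggacttccc in the Cxcl10 window for NF-kappaB.
Cxcl9: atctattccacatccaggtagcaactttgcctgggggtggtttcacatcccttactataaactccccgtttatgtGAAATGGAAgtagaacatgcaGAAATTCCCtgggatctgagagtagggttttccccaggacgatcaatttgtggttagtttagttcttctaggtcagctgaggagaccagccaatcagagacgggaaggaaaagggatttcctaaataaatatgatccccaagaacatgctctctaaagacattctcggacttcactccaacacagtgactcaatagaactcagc
Cxcl10: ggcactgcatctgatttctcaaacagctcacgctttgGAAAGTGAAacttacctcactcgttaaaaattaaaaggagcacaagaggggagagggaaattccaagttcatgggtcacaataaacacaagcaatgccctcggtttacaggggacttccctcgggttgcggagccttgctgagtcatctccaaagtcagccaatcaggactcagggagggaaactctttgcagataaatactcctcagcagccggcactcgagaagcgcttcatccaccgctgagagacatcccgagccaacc

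Of the homeostatic CXC ligands, 1 of 2 tested rose with anti-B7-H3. Cxcl12 (ENSMUSG00000061353.11, chr6:117168535-117181367, plus strand), which stromal cells make to retain leukocytes through Cxcr4, stood at 1.24, 2.40 and 1.86 CPM in isotype control, 5.13, 4.63 and 2.24 with anti-B7-H3, 1.07, 0.628 and 0.395 with anti-PD1 and 0.741, 0.790 and 0.902 with the combination. The anti-B7-H3 libraries were uneven, and the lowest of them overlapped isotype control. Cxcl12 rose with anti-B7-H3 by 1.16 ± 0.403 (edgeR adjusted p = 0.0096), a call lost without isotype control replicate 1 (0.89 (edgeR adjusted p = 0.0909)), without anti-B7-H3 replicate 1 (1.0 (edgeR adjusted p = 0.0504)), under background subtraction (1.42 (edgeR adjusted p = 0.0604)) and with an effective-length offset (0.87 (edgeR adjusted p = 0.0592)). Between anti-B7-H3 and the combination it fell, with -2.28 ± 0.325 (edgeR adjusted p = 1.77e-08), the largest fall there after that of Ccl19. Against isotype control it was -1.32 ± 0.552 (edgeR adjusted p = 0.0511) with anti-PD1 and -1.12 ± 0.516 (edgeR adjusted p = 0.0578) with the combination, neither called. Without isotype control replicate 1 both passed the test, at -1.58 (edgeR adjusted p = 0.042) and -1.39 (edgeR adjusted p = 0.0423). The value with anti-PD1 also passed without anti-PD1 replicate 1, at -1.78 (edgeR adjusted p = 0.026), and without anti-B7-H3 replicate 3, at -1.26 (edgeR adjusted p = 0.0455).

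Cxcl14 (ENSMUSG00000021508.11, chr13:56288643-56296551, minus strand), an epithelial chemokine, stood at 1.55, 1.60 and 0 CPM in isotype control, 2.32, 1.36 and 1.75 with anti-B7-H3, 0.711, 0.126 and 0.790 with anti-PD1 and 1.67, 1.38 and 1.31 with the combination. All groups except anti-PD1 reached above 1 CPM in most libraries, and isotype control replicate 3 had 0. Cxcl14 was higher with the combination than with anti-PD1, at 1.40 ± 0.484 (edgeR adjusted p = 0.0138), and that call was lost without anti-PD1 replicate 2, at 0.93 (edgeR adjusted p = 0.141). With anti-B7-H3 against isotype control the value was 0.75 ± 0.544 (edgeR adjusted p = 0.223), not called.

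The ligands with a membrane anchor, Cxcl16 and Cx3cl1, both rose with anti-B7-H3 and with the combination, but differed in the comparison between these groups. Cxcl16 (ENSMUSG00000018920.11, chr11:70453983-70459984, minus strand), the ligand of Cxcr6 and a scavenger receptor on macrophages, stood at 5.26, 5.20 and 5.94 CPM in isotype control, 51.8, 50.7 and 49.7 with anti-B7-H3, 10.4, 8.78 and 9.35 with anti-PD1 and 24.4, 24.4 and 22.9 with the combination. No group overlapped another. Cxcl16 rose by 3.21 ± 0.149 (edgeR adjusted p = 2.2e-30) with anti-B7-H3, 0.80 ± 0.207 (edgeR adjusted p = 0.00123) with anti-PD1 and 2.12 ± 0.171 (edgeR adjusted p = 6.86e-18) with the combination, and fell between anti-B7-H3 and the combination, with -1.09 ± 0.0742 (edgeR adjusted p = 7.4e-21).

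Cx3cl1 (ENSMUSG00000031778.13, chr8:94772009-94782427, plus strand), the ligand of Cx3cr1 that endothelial and epithelial cells display on their surface, stood at 1.24, 3.6 and 6.31 CPM in isotype control, 10.3, 8.93 and 7.50 with anti-B7-H3, 2.73, 4.77 and 2.77 with anti-PD1 and 13.1, 15.1 and 15.0 with the combination. The combination libraries were the highest of all 12, and those of isotype control spread widest. Cx3cl1 rose with the combination against anti-B7-H3 by 0.69 ± 0.148 (edgeR adjusted p = 0.000251), where 21 other chemokine genes fell. Markers of skeletal muscle and keratinocytes were higher in the same comparison, 5 of 5 and 3 of 3 tested. The muscle list summed to 21.7 to 28 CPM in isotype control, 0.225 to 0.58 with anti-B7-H3, where Myh4 had 0 reads, 16.2 to 21.7 with anti-PD1 and 81.2 to 86.4 with the combination. The keratinocyte list, given with Ccl27a, stood at 0 to 0.150 with anti-B7-H3 and 1.79 to 2.69 with the combination, and the part of either tissue in the level of Cx3cl1 was not tested. Against isotype control Cx3cl1 rose by 1.32 ± 0.299 (edgeR adjusted p = 0.000248) with anti-B7-H3 and 2.01 ± 0.277 (edgeR adjusted p = 1.27e-07) with the combination, and these came to 1.94 and 2.64 without isotype control replicate 3. For anti-PD1 the value was -0.06 ± 0.371 (edgeR adjusted p = 0.916), not called. Isotype control held 30 reads against 26.1 expected from background, and background subtraction raised the 2 called changes to 2.07 and 2.78.

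The promoter of Cx3cl1 is shown because this was the called ligand that rose between anti-B7-H3 and the combination, where its neighbours Ccl17 and Ccl22 fell. It covers chr8:94771930-94772229, plus strand (GRCm38.p6, RefSeq), and none of the 3 motifs lies in it.
Cx3cl1: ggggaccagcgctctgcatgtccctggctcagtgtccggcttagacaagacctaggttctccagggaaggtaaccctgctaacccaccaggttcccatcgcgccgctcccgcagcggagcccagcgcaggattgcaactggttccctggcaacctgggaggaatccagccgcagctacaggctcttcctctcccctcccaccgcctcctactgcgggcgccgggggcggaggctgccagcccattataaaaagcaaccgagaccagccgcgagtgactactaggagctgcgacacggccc

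All 7 receptors tested rose with anti-B7-H3, 4 rose with the combination, and all 7 fell between these groups. With anti-PD1 their log2 fold changes ran from -0.91 (Cxcr3) to 0.47 (Ccr2), without a call. Ackr4, the listed receptor that the filter left out, went the other way against isotype control on few reads. Its mean CPM was 1.53 in isotype control, 0.0515 with anti-B7-H3 and 0 with the combination. Ccr2 (ENSMUSG00000049103.14, chr9:124101950-124113557, plus strand), the receptor through which inflammatory monocytes leave bone marrow and enter tissue, stood at 6.18, 5.99 and 2.72 CPM in isotype control, 24.0, 24.3 and 23.2 with anti-B7-H3, 6.71, 6.68 and 7.39 with anti-PD1 and 12.8, 13.8 and 13.1 with the combination. Its anti-B7-H3 libraries were highest and those of the combination next, both clear of the other groups. Ccr2 rose by 2.25 ± 0.185 (edgeR adjusted p = 9.46e-18) with anti-B7-H3 and 1.41 ± 0.207 (edgeR adjusted p = 1.97e-08) with the combination, and fell between these, with -0.85 ± 0.0972 (edgeR adjusted p = 2.31e-11). Anti-PD1 alone gave 0.47 ± 0.240 (edgeR adjusted p = 0.114), not called, and 0.63 (edgeR adjusted p = 0.0243) with no filter on low counts.

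Ccr1 (ENSMUSG00000025804.5, chr9:123962124-123968692, minus strand), a receptor of monocytes, macrophages and neutrophils for Ccl5, Ccl6 and Ccl9, stood at 5.26, 3.6 and 6.31 CPM in isotype control, 36.3, 32 and 32.7 with anti-B7-H3, 6.16, 6.53 and 5.80 with anti-PD1 and 19.5, 19.2 and 17.3 with the combination. As for Ccr2, anti-B7-H3 was highest and the combination next, while isotype control and anti-PD1 overlapped. Ccr1 rose by 2.72 ± 0.170 (edgeR adjusted p = 2.46e-23) with anti-B7-H3 and 1.87 ± 0.190 (edgeR adjusted p = 1.47e-13) with the combination, and fell between these, with -0.86 ± 0.0859 (edgeR adjusted p = 1.9e-13). With anti-PD1 the log2 fold change was 0.27 ± 0.241 (edgeR adjusted p = 0.397), not called.

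Cx3cr1 (ENSMUSG00000052336.7, chr9:119901616-120069879, minus strand), the receptor of patrolling monocytes and many tissue macrophages, stood at 4.02, 4.0 and 2.60 CPM in isotype control, 9.41, 9.99 and 9.25 with anti-B7-H3, 3.91, 2.51 and 2.37 with anti-PD1 and 6.57, 8.49 and 6.82 with the combination. Anti-B7-H3 libraries were highest and combination libraries next, and neither overlapped another group. Cx3cr1 rose by 1.42 ± 0.250 (edgeR adjusted p = 1.05e-06) with anti-B7-H3 and 1.03 ± 0.264 (edgeR adjusted p = 0.000655) with the combination. The fall between these, -0.40 ± 0.144 (edgeR adjusted p = 0.0229), was the smallest of the 7, and its call was lost without any 1 of 5 libraries, with values of -0.40 to -0.33. The libraries were the 3 of anti-B7-H3 and combination replicates 1 and 3. It was also lost under background subtraction, at -0.38 (edgeR adjusted p = 0.136). That setting raised the changes against isotype control to 2.68 with anti-B7-H3 and 2.30 with the combination.

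Cxcr4 (ENSMUSG00000045382.6, chr1:128588199-128592293, minus strand), the broadly expressed receptor of Cxcl12, stood at 2.78, 3.20 and 4.46 CPM in isotype control, 21.5, 20.4 and 22.2 with anti-B7-H3, 4.86, 3.64 and 4.22 with anti-PD1 and 12.3, 11.6 and 10.6 with the combination. Groups lay in the order anti-B7-H3, combination and then the remaining 2, which overlapped. Cxcr4 rose by 2.63 ± 0.207 (edgeR adjusted p = 1.53e-18) with anti-B7-H3 and 1.73 ± 0.234 (edgeR adjusted p = 1.92e-09) with the combination, and fell between these, with -0.90 ± 0.103 (edgeR adjusted p = 2.18e-11). In isotype control its 29 reads compared with 23.7 expected from background, and background subtraction moved the first change to 4.32 and the second to 3.44. With anti-PD1 the value was 0.30 ± 0.291 (edgeR adjusted p = 0.442), not called, and background subtraction made it 1.98 (edgeR adjusted p = 0.0221).

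Cxcr3 (ENSMUSG00000050232.6, chrX:101731535-101734269, minus strand) and Cxcr6 (ENSMUSG00000048521.8, chr9:123806475-123811760, plus strand), receptors of activated T cells and natural killer cells, were near the limit of detection. Cxcr3 stood at 0, 1.2 and 1.11 CPM in isotype control, 2.32, 2.64 and 1.91 with anti-B7-H3, 0.237, 0.502 and 0.395 with anti-PD1 and 0.833, 0.987 and 1.15 with the combination. Cxcr6 stood at 0.618, 1.2 and 0.743 CPM in isotype control, 2.92, 1.98 and 1.92 with anti-B7-H3, 0.829, 1.26 and 1.19 with anti-PD1 and 1.39, 1.28 and 0.985 with the combination. For both, the anti-B7-H3 libraries were highest. In isotype control Cxcr3 had 6 reads and Cxcr6 7, under the 24.2 and 23.6 expected from background. Cxcr3 rose with anti-B7-H3 by 1.66 ± 0.561 (edgeR adjusted p = 0.00802), but gave 0.95 (edgeR adjusted p = 0.149) without isotype control replicate 1. Cxcr6 rose by 1.44 ± 0.515 (edgeR adjusted p = 0.0121), but gave 1.21 (edgeR adjusted p = 0.0786) without the same library. Between anti-B7-H3 and the combination Cxcr3 fell, with -1.19 ± 0.356 (edgeR adjusted p = 0.00501), or -1.07 (edgeR adjusted p = 0.0506) without anti-B7-H3 replicate 2.

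Cxcr6 fell in that comparison with -0.91 ± 0.324 (edgeR adjusted p = 0.0205). The call was lost without anti-B7-H3 replicate 1 (-0.66 (edgeR adjusted p = 0.204)), combination replicate 2 (-0.93 (edgeR adjusted p = 0.0502)) or combination replicate 3 (-0.77 (edgeR adjusted p = 0.111)), under background subtraction (-0.98 (edgeR adjusted p = 0.0854)) and with DESeq2's Wald test (adjusted p = 0.0762). Cxcr3 was higher with the combination than with anti-PD1, at 1.37 ± 0.536 (edgeR adjusted p = 0.0297). That call was lost without anti-PD1 replicate 1 (1.11 (edgeR adjusted p = 0.136)), anti-PD1 replicate 3 (1.39 (edgeR adjusted p = 0.0629)) or combination replicate 3 (1.27 (edgeR adjusted p = 0.087)), and with DESeq2's Wald test (adjusted p = 0.0678). Background subtraction leaves almost no isotype control reads of Cxcr3 and Cxcr6 and gives 7.20 and 7.19 for anti-B7-H3, sizes that rest on that near-zero base. T cell markers summed to 17.5 to 21.2 CPM in isotype control, 27.3 to 30.2 with anti-B7-H3, 5.27 to 7.16 with anti-PD1 and 13 to 15.5 with the combination over 8 genes, none at 0 reads, where the 162 isotype control reads compare with 140 expected from background. Their part in these changes was not tested.

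Of the atypical receptors, only Ackr3 was tested. Ackr3 (ENSMUSG00000044337.5, chr1:90203980-90216751, plus strand), which removes Cxcl12, stood at 1.55, 5.20 and 2.23 CPM in isotype control, 4.94, 5.12 and 5.13 with anti-B7-H3, 4.15, 3.39 and 3.95 with anti-PD1 and 3.06, 3.16 and 3.20 with the combination. Isotype control replicate 2 was the highest of all 12 libraries and replicate 1 the lowest. Ackr3 rose with anti-B7-H3 by 0.82 ± 0.305 (edgeR adjusted p = 0.0159), but gave 0.44 (edgeR adjusted p = 0.262) without isotype control replicate 1, 0.65 (edgeR adjusted p = 0.099) without replicate 3 and 1.42 (edgeR adjusted p = 0.000941) without replicate 2. Background subtraction moved that change to 2.24. It fell between anti-B7-H3 and the combination, with -0.68 ± 0.202 (edgeR adjusted p = 0.00438), at -0.70 (edgeR adjusted p = 0.0501) under background subtraction. With anti-PD1 it was 0.42 ± 0.331 (edgeR adjusted p = 0.331), not called with all libraries, and 1.03 (edgeR adjusted p = 0.0461) without isotype control replicate 2. Ackr4, which removes Ccl19, Ccl21 and Ccl25, was not tested. It had 13, 2, 10 and 0 reads in the 4 groups, all under the 30 read minimum. Its mean CPM was 1.53, 0.0515, 0.420 and 0 in that order, and 23.1 isotype control reads were expected from background.

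Ligands were also set beside their receptors. Of 30 known pairs, 20 had both genes tested. Both rose with anti-B7-H3 in 15 pairs, and in 1 pair, Ccl19 with Ccr7, they moved in opposite directions. Between anti-B7-H3 and the combination both fell in 14 pairs, and in 1, Cx3cl1 with Cx3cr1, the ligand rose and the receptor fell. With the combination against isotype control both rose in 6 pairs, and Ccl8 rose while its receptor Ccr8 fell. The same pair was opposite with anti-PD1, where 0 of 20 pairs moved together and 19 had a gene that was not called. The combination against anti-PD1 had 10 pairs with both higher, and the interaction 5 with both negative. With anti-B7-H3, 16 of 21 tested ligands and 7 of 7 tested receptors among the 34 genes rose. Pairs with both genes higher are thus frequent however genes are paired, and the counts say nothing particular about pairs.

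**Figure D4:**
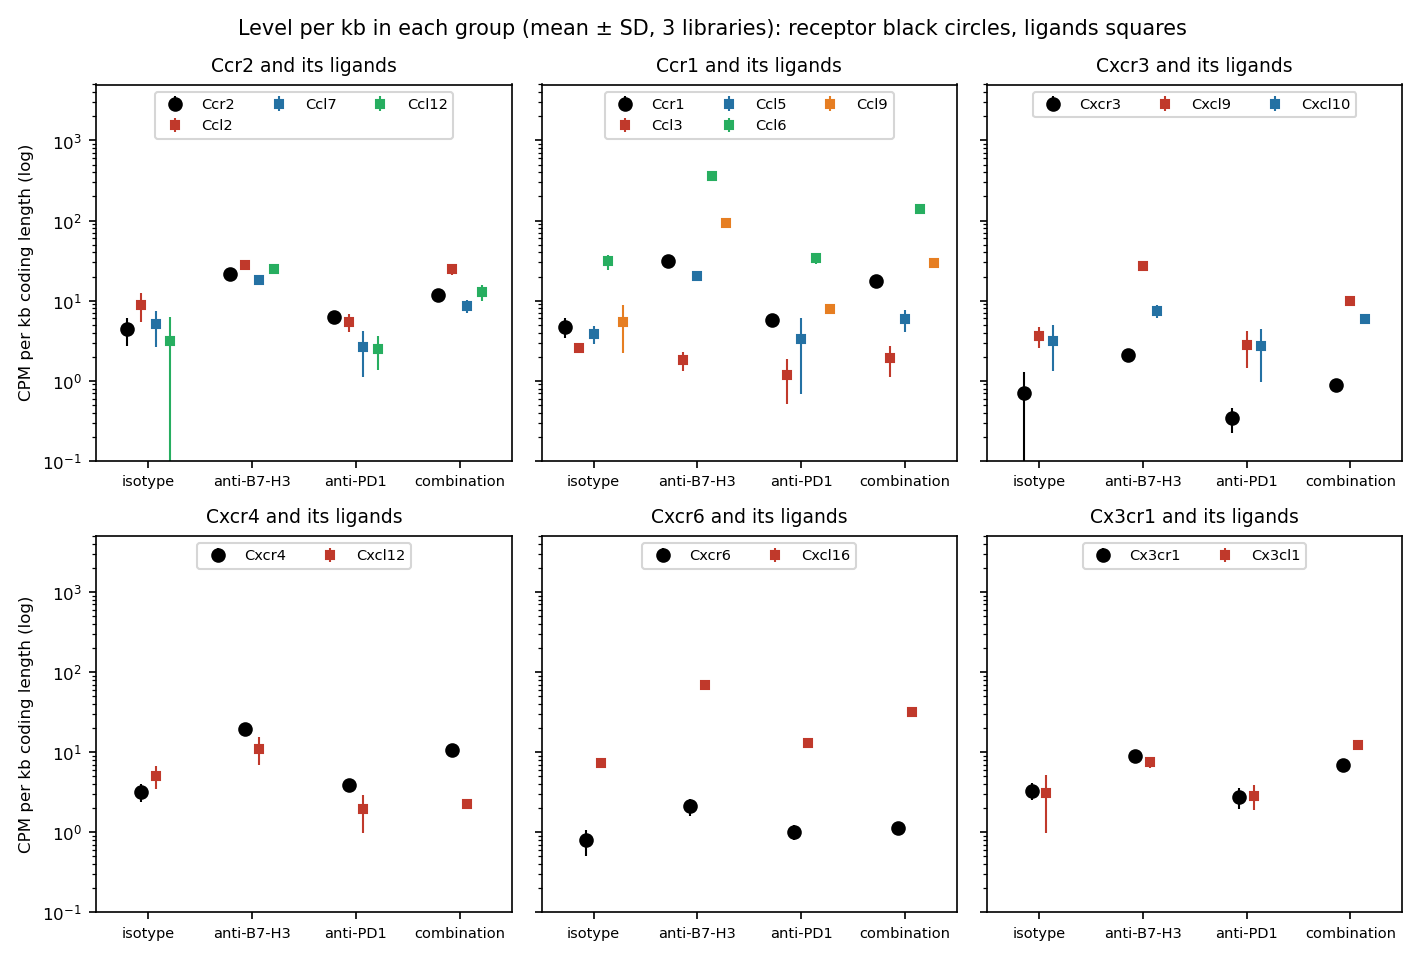
Mean CPM per kilobase of coding length (log y axis) with bars of ± 1 SD over 3 libraries, for 6 receptors and their ligands in the 4 groups. Bars that run below the lower end of the axis are cut there (Ccl12 and Cxcr3 in isotype control). Cxcl16 stands 32.4 times above Cxcr6 with anti-B7-H3, and Cxcl12 falls below Cxcr4 in all treated groups.

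The plot of pairs puts ligands and receptors on 1 scale per coding length, on which levels of different genes can be compared. Ccl6 was 6.52 times Ccr1 in isotype control, 11.3 times with anti-B7-H3, 5.88 times with anti-PD1 and 7.95 times with the combination. Cxcl9 over Cxcr3 was 5.22, 12.9, 8.25 and 11 in that order, and Cxcl16 over Cxcr6 was 9.31, 32.4, 12.7 and 28.5. Cxcl12 over Cxcr4 ran the other way, from 1.58 in isotype control to 0.563 with anti-B7-H3, 0.493 with anti-PD1 and 0.212 with the combination. Cx3cl1 over Cx3cr1 was 0.941, 0.836, 1.05 and 1.77, so the ligand exceeded its receptor most in the combination. The ratios have no test. Those of isotype control rest on receptors under 3 times background, and with anti-PD1 Cxcr3 held 9 reads against 17.4 expected from background and Cxcr6 26 against 17.0.

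The receptor of Ccl8 in mice, Ccr8, is not among the 34 genes. Ccr8 stood at 2.78, 2.40 and 3.34 CPM in isotype control, 2.17, 1.82 and 1.59 with anti-B7-H3, 1.30, 0.879 and 0.527 with anti-PD1 and 1.11, 0.691 and 0.902 with the combination. Ccr8 had 24 reads in isotype control, with 23.3 expected from background. Its log2 fold change against isotype control was -0.61 ± 0.393 (edgeR adjusted p = 0.173) with anti-B7-H3, not called, and it fell with anti-PD1, at -1.62 ± 0.459 (edgeR adjusted p = 0.00321), and with the combination, at -1.64 ± 0.440 (edgeR adjusted p = 0.00107). Those comparisons start from a level at background. Per kilobase, Ccl8 was 13.8 times Ccr8 in isotype control, 813 times with anti-B7-H3, 94.8 times with anti-PD1 and 497 times with the combination.

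Other genes of the chemokine system were 45 further receptors, ligands and signalling proteins. Of the 25 tested, 18 rose and 1 fell with anti-B7-H3, beside 30.8% of all genes higher and 33.3% lower. With anti-PD1 6 rose and 5 fell, beside 17.5% and 20.9%, which is near the share of all genes. With the combination 15 rose and 5 fell, beside 27.8% and 29.5%. Between anti-B7-H3 and the combination 20 fell, beside 19.1% of all genes, and the other 5 were not called. Ccr3, the receptor of the eotaxins, rose with anti-B7-H3 by 3.06 ± 0.300 (edgeR adjusted p = 2.9e-14). Ccr7, the receptor of Ccl19, rose by 1.34 ± 0.357 (edgeR adjusted p = 0.000802), while its ligand fell. The largest changes were those of Rarres2, which encodes chemerin, a chemoattractant for macrophages, at 4.55 ± 0.243, of Pf4, a platelet chemokine, at 3.09 ± 0.232, and of Rgs1, a brake on chemokine receptor signals with 4 isotype control reads, at 3.07 ± 0.528. The single fall was that of Grk3, a kinase that desensitises receptors, at -0.64 ± 0.222.

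Marker lists of many cell types were also lower with the combination than with anti-B7-H3. The summed list of macrophages gave a log2 ratio of -1.01 of combination over anti-B7-H3, that of T cells -1.04, NK cells -1.32, plasma cells -1.34, neutrophils -1.43, B cells -1.79, eosinophils -1.86 and monocytes -2.23. Smaller differences were those of fibroblasts (-0.63), dendritic cells (-0.61), endothelium (-0.37) and mast cells (-0.26), where 0 of 5 genes were called. The lists of melanocytes (0.76), keratinocytes (5.41) and skeletal muscle (7.92) were higher with the combination. Of 4 melanocyte genes tested, 2 were called higher and 1 lower, so that list was split. The keratinocyte list held 2 reads with anti-B7-H3, where background gives 2.55. The chemokine median of -0.93 is a median over genes and not a ratio of sums. As medians over tested genes, the lists that were lower ran from -2.71 (plasma cells) to -0.33 (dendritic cells). Fibroblasts had -0.72, macrophages -1.04, T cells -1.08 and monocytes -1.65 on that measure. The chemokine median thus lies beside several lists and singles out none of them. The monocyte list, of 5 genes, summed to 51.0 to 61.9 CPM in isotype control, 753 to 785 with anti-B7-H3, 50.0 to 53.2 with anti-PD1 and 163.6 to 164.5 with the combination, and the fibroblast list, of 7 genes, to 1757 to 2024, 6531 to 6674, 3864 to 4101 and 4235 to 4292. No gene of either list had 0 reads in any group. The part of any of these cells in the chemokine changes was not tested.

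**Figure D5:**
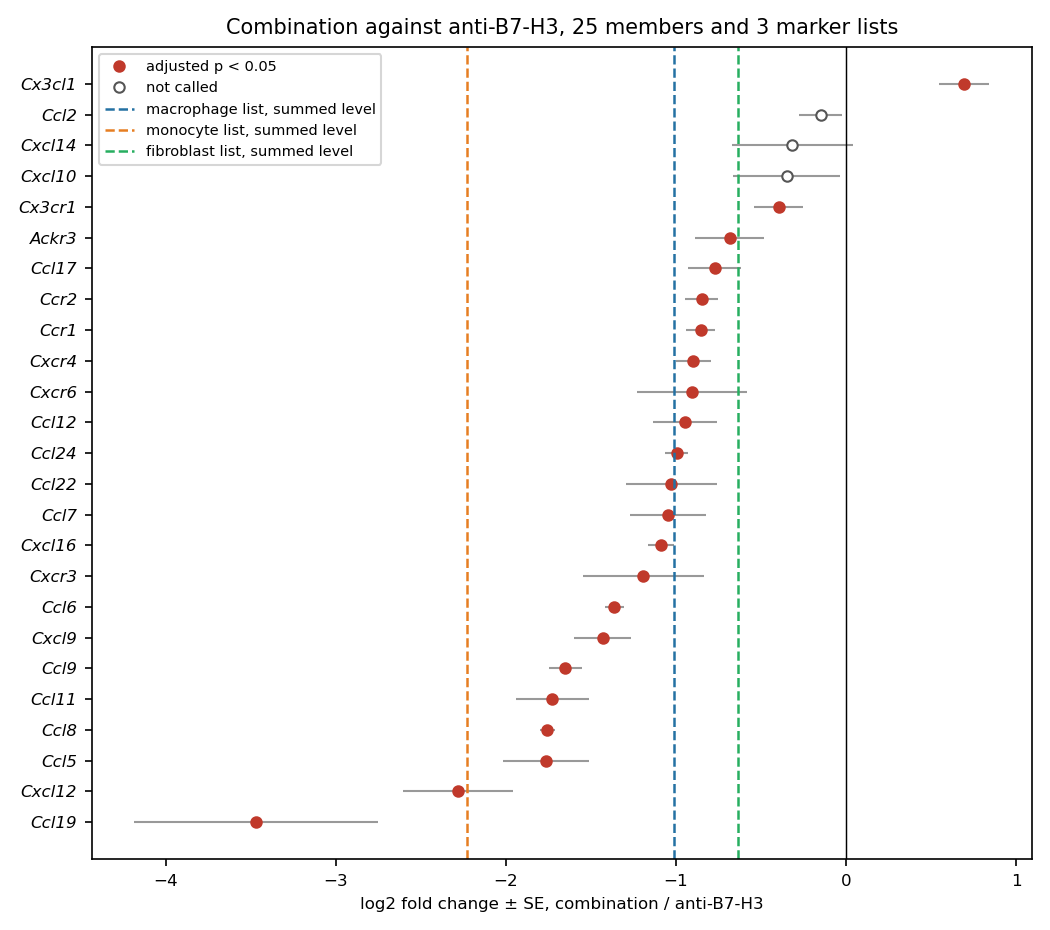
Log2 fold change of the combination against anti-B7-H3 (x axis) for 25 chemokine genes above background, as points with bars of ± 1 SE; filled points passed the edgeR test. Dashed lines mark the summed marker lists of macrophages (-1.01), fibroblasts (-0.63) and monocytes (-2.23). Cx3cl1 lies right of 0 at 0.69, and Ccl19 and Cxcl12 lie farthest left.

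In the plot of the combination against anti-B7-H3, genes lie on both sides of the macrophage line. Reads of each gene were also divided by those of the macrophage list in the same library, as reads per 1000 macrophage-list reads. On that scale the median ratio of the combination over anti-B7-H3 was 1.01 over the 25 genes (all genes 2.02). The 25 were kept for being above background, as all of them were with anti-B7-H3, so medians and counts over them only describe. Of the 25, 7 were higher in the combination without overlap of libraries, 8 were lower and 10 overlapped, beside 83.8% of all genes higher and 2.47% lower without overlap. Cx3cl1 read 3.80 ± 0.617 (SD, n = 3) per 1000 with anti-B7-H3 and 12.4 ± 1.0 with the combination, a ratio of 3.26, and Ccl2 had a ratio of 1.81. Ccl8 read 179 ± 2.78 and 107 ± 2.01, a ratio of 0.597. This scale has no test, and it assumes that the markers follow the cells alike in all groups.

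Against isotype control the same scale reads differently. The ratio of anti-B7-H3 over isotype control had a median of 0.58 over the 25 genes (all genes 0.121), 5 higher without overlap, 11 lower and 9 overlapping, beside 0.623% of all genes higher and 95.3% lower. The 5 were Ccl8, with a ratio of 4.79, Ccl9 (2.09), Ccl6 (1.43), Ccl24 (1.42) and Cxcl16 (1.15). They are named after their values were seen, and they are also the 5 most abundant ligands per kilobase of coding length with anti-B7-H3.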

How the data were processed

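RNA of whole tumours was sequenced in 12 libraries, 3 for each of 4 groups, after depletion of ribosomal RNA, from total RNA of at least 500 ng with an integrity number of 7 or more, per the labels' protocols. The submitters' processing notes name FastQC 0.11.8 and GRCm38; the quantification program and its strand setting are not given in the sources used here. The estimated counts of reads per transcript that the authors deposited were summed per gene with the GENCODE annotation of GRCm38 (57473 of 58083 transcripts matched) and rounded. The TPM values the authors deposited beside them, per the file headers, were not tested. Of the lengths, 87.3% are multiples of 3, so lengths are coding lengths.

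Differences were tested with edgeR 4.0.16 (R 4.3.3) by its robust quasi-likelihood F test, on TMM-scaled libraries after its filter on low counts, in 1 fit of 12 libraries with a mean for each group. Benjamini-Hochberg adjustment ran over 13478 genes. The script was tested on simulated data. The SE is the size of the log2 fold change over the square root of F. Intervals are at 95% and, like all depths given, cover counting error only. Each gene above background and called in at least 1 comparison is described with every library, and the others by counts. Members, lists and tests were chosen with earlier results of these data known. Replicate numbers did not pair the libraries: deviations of same-numbered libraries correlated at -0.0361 to 0.0435 over 18 pairs. Alternatives used DESeq2 1.42.0 (size factors, Wald test), and Python 3.11.15 with pandas 2.3.3, numpy 2.4.6 and matplotlib 3.10.9 prepared values and figures. Promoters come from RefSeq (GRCm38.p6), where 26 of the 34 genes matched.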

Additional observations from a re-analysis of the deposited data

Results flagged for a closer look

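For 13 of the 28 tested chemokine genes, the effect of anti-B7-H3 differed according to whether anti-PD1 was given as well, by edgeR's interaction term over all 12 libraries. All 13 values were negative, so the log2 change with both antibodies was below the sum of the changes with each. Of all genes, 17.3% were called negative.

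Among inflammatory CC ligands, Ccl8, a ligand of Ccr8, had the largest interaction, -2.87 ± 0.129 (edgeR adjusted p = 2.72e-30). Ccl17 and Ccl22, the ligands of Ccr4, had -2.41 ± 0.357 (edgeR adjusted p = 6.55e-08) and -2.23 ± 0.575 (edgeR adjusted p = 0.00128). For Ccl9 and Ccl6, ligands of Ccr1, it was -2.08 ± 0.356 (edgeR adjusted p = 1.97e-06) and -1.47 ± 0.165 (edgeR adjusted p = 2.25e-11), with -2.72 for Ccl9 without isotype control replicate 1. The eotaxin Ccl24 gave -1.69 ± 0.217 (edgeR adjusted p = 1.22e-09) and the membrane-bound Cxcl16 -1.89 ± 0.212 (edgeR adjusted p = 1.61e-11).

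The receptors Ccr1, Ccr2 and Cxcr4 gave -1.13 ± 0.248 (edgeR adjusted p = 0.000169), -1.32 ± 0.252 (edgeR adjusted p = 1.68e-05) and -1.2 ± 0.299 (edgeR adjusted p = 0.00088). For Ccl22 background subtraction moved the value to -2.91, and for Cxcr4 to -2.86.

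The calls of 3 genes were lost when any 1 of several libraries was left out. Ccl5 gave -1.55 ± 0.638 (edgeR adjusted p = 0.0497), and the call was lost without any 1 of 9 libraries, with values of -1.68 to -0.95. Those were the 3 of isotype control, anti-B7-H3 replicates 1 and 2, anti-PD1 replicates 1 and 3 and combination replicates 1 and 2. It was also lost with the replicate block, at -1.57 (edgeR adjusted p = 0.0521), with DESeq2's Wald test (adjusted p = 0.0763), under background subtraction (-2.30), with genes above background only (-1.51) and with an effective-length offset (-1.43). The homeostatic ligand Ccl19 gave -2.30 ± 0.855 (edgeR adjusted p = 0.0286), lost without isotype control replicate 2 (-2.16), anti-PD1 replicate 2 (-2.11), combination replicate 1 (-1.84) or combination replicate 3 (-1.77), and -4.72 without combination replicate 2. Its call was also lost with the Wald test (adjusted p = 0.0689) and under background subtraction (-1.90). The scavenging receptor Ackr3 gave -1.11 ± 0.383 (edgeR adjusted p = 0.018), lost without isotype control replicate 1 (-0.73) or 3 (-0.95), and -1.71 without replicate 2 or -2.47 under background subtraction.

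Ccl11, not called at -1.36 ± 0.596 (edgeR adjusted p = 0.066), passed the test without isotype control replicate 1 (-1.96), anti-PD1 replicate 3 (-1.75) or combination replicate 3 (-1.54). Cx3cl1, at 0.76 ± 0.411 (edgeR adjusted p = 0.155), passed it with a positive value without isotype control replicate 1 (1.26) or anti-PD1 replicate 2 (1.09). Ccl25, at 1.57 ± 0.704 (edgeR adjusted p = 0.0725), did so without combination replicate 3 (1.94), and Cxcl9, at -1.04 ± 0.514 (edgeR adjusted p = 0.107), passed with a negative value without anti-PD1 replicate 2 (-1.36).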

How the results depend on the processing

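The 10 alternatives apart from leaving out 1 library gave 1588 values of 168 results (28 genes in 6 comparisons). They kept all libraries, except that the fit with only the groups compared used the libraries of those groups alone. Of the 1588 values, 1517 kept their direction and side of the threshold, 45 lost the call, 26 gained one and none changed the direction of a call. Leaving out 1 library gave 1980 values, of which 1898 kept it, 60 lost and 22 gained a call. Called genes that kept the call in every setting that could be fitted were 20 of 25 for anti-B7-H3, 2 of 6 for anti-PD1, 15 of 16 for the combination (all against isotype control), 11 of 22 for combination against anti-B7-H3, 15 of 20 for combination against anti-PD1 and 10 of 13 for the interaction. The interaction could not be fitted with only the groups compared. The setting with calls of at least 2-fold refits nothing and drops every call with a smaller change. In all fits that left out 1 library, 20 of 25, 4 of 6, 16 of 16, 19 of 22, 16 of 20 and 10 of 13 calls were kept, in the same order.

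Counts of chemokine genes moved by more than 1.5 times in these cases. Lower with anti-B7-H3 (2): 4 with DESeq2's Wald test, 4 with no filter, 1 with only the groups compared and 1 with genes above background only. Higher with anti-PD1 (4): 2 with calls of at least 2-fold. Lower with anti-PD1 (2): 1 with the Wald test, 1 with background subtracted, 1 with genes above background only, 1 without satellite-like genes and 4 with an effective-length offset. Lower with the combination (2): 4 with the Wald test, 5 with no filter, 1 with only the groups compared and 1 with background subtracted. Combination against anti-B7-H3 with calls of at least 2-fold: 0 higher (1) and 12 lower (21). Lower in combination against anti-PD1 (2): 0 with only the groups compared, 1 with background subtracted, 1 with genes above background only and 1 without satellite-like genes. Genes tested changed with the filter, since Ccl27a and Ackr4 enter without it; otherwise the cause was not tested.

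Leaving out 1 library, counts higher ranged from 18 to 23 with anti-B7-H3, 4 to 5 with anti-PD1, 14 to 15 with the combination, 1 throughout between combination and anti-B7-H3, 16 to 19 between combination and anti-PD1 and 0 to 1 for the interaction. For the same 6 comparisons the counts lower were 2 throughout, 0 to 2, 2 to 3, 19 to 21, 1 to 2, and 11 to 13. With the replicate block 165 of 168 results kept their call, and the counts were 23 higher and 2 lower with anti-B7-H3 and 12 lower for the interaction (13); Ccl25 with anti-PD1 (-1.12 (edgeR adjusted p = 0.0591)) and Ccl5 in the interaction lost theirs, and Cxcl12 with anti-PD1 gained one (-1.33 (edgeR adjusted p = 0.0476)).

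Background subtraction moved the median of all genes to 0.27 with anti-B7-H3, 0.16 with anti-PD1, 0.25 with the combination against isotype control and -0.19 for the interaction. The split of all genes called became 4171 higher and 2769 lower with anti-B7-H3 (4148 and 4493 as reported), 1861 and 1151 with anti-PD1 (2353 and 2811), 3373 and 2070 with the combination (3745 and 3982) and 1607 and 2200 for the interaction (2571 and 2329). Depth limits the genes with few isotype control reads, such as Ccl4, Ccl3, Cxcr3, Cxcr6, Cxcl10, Ccl12 and Ccl22.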

Other observations

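Ccl8 took its largest share of all ligand reads with anti-B7-H3, where ligands were highest. Ccl8 is itself part of the ligand total, at 54.2% of ligand reads with anti-B7-H3, so share and total are not separate results. Per kilobase of coding length it made up 20.9% ± 1.28 (SD, n = 3) of the reads of the 26 ligands in isotype control, 60.8% ± 0.954 with anti-B7-H3, 35.2% ± 2.18 with anti-PD1 and 50.6% ± 0.430 with the combination, and no libraries of different groups overlapped. Ccl6, the second ligand in every group, stayed between 12.5% and 18.8% in all 12 libraries. The 26 ligands summed to 66.4 CPM in isotype control, 773 with anti-B7-H3, 82.5 with anti-PD1 and 292 with the combination, and the 8 receptors to 23.2, 98.1, 26.0 and 56.0. Per kilobase, Ccl8 ranked highest of the 34 genes in every group, followed by Ccl6 and then Ccl24.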
